A study of Mus musculus with 21 samples.

Results

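The genes described here are 8 that carry iodide and the ions that accompany it across the follicular cell of the thyroid: Slc5a5, Slc26a4, Slc26a7, Ano1, Cftr, Kcnq1, Kcne2 and Slc5a8. They were taken by gene symbol from the 45777 genes of the expression tables, and all 8 were found. The RNA sequencing libraries are of thyroid glands of C57BL/6J mice. There were 7 groups of 3 libraries at 1 week and 4 weeks. TSH mice received pLIVE vectors carrying the subunits of thyrotropin (pLIVE-TSHB and pLIVE-CGA), at both times. TSH-MMI mice received the same vectors and methimazole (thiamazole, MMI), also at both times. Empty-MMI mice, analysed at 4 weeks, received the empty vector (pLIVE-Empty) and methimazole. Empty mice, the controls at both times, received the empty vector alone. Every library, those of Empty included, carries a further label for the induction of hyperthyroidism. The pLIVE vectors drive expression in the liver from an albumin promoter, so the hormone reaches the thyroid from another organ. The sources used here give no sex, age or dose of methimazole. The labels do not say that each library is of a separate animal, so the p-values below measure the spread between these libraries, which may be technical.

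Thyrotropin (TSH) binds its receptor on follicular cells and, mainly through cyclic AMP, drives iodide uptake, hormone synthesis and growth. Iodide enters at the basolateral membrane together with sodium through the symporter NIS, the product of Slc5a5, which is powered by the sodium pump. NIS is assisted by a potassium channel made of Kcnq1 and Kcne2, whose loss in mice impairs iodide accumulation. Iodide leaves into the follicle lumen through anion transporters and channels of the apical membrane. Candidates are pendrin (Slc26a4), which is mutated in Pendred syndrome, Slc26a7, in which mutations cause congenital goitrous hypothyroidism, and the calcium-activated chloride channel anoctamin-1 (Ano1). Cftr is the cyclic AMP-regulated chloride channel. Slc5a8 is a sodium-coupled monocarboxylate transporter of the apical membrane that was first described as an apical iodide transporter. Methimazole blocks the use of iodide in hormone synthesis.

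The sequences before the transcription starts of 3 members are shown because these genes moved in different ways at 1 week: Slc26a4 most, Slc5a5 in the same direction, and Slc5a8 in the opposite one. For 1 RefSeq start of each gene on GRCm38.p6, the 250 bases upstream are printed 5′ to 3′ on its strand, with any TATAAA in capitals. Slc26a4 lies on the minus strand (chr12:31559985-31560234), as does Slc5a5 (chr8:70892758-70893007), and Slc5a8 lies on the plus strand (chr10:88885742-88885991). The RefSeq gene span reaches to 31560055 for Slc26a4 and to 70892785 for Slc5a5, so part of each of these windows lies within the gene. Positions below hold for the starts used and not for a start further upstream.
Slc26a4: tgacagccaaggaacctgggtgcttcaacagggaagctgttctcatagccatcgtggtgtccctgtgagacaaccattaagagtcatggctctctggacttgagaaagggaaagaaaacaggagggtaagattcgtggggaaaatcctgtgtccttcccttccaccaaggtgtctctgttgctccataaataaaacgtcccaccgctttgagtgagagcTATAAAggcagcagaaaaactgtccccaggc
Slc5a5: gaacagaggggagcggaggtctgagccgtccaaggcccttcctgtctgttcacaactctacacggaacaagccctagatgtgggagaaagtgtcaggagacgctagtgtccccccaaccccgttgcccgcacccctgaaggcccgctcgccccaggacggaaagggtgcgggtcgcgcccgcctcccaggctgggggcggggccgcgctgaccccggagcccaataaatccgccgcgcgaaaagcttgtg
Slc5a8: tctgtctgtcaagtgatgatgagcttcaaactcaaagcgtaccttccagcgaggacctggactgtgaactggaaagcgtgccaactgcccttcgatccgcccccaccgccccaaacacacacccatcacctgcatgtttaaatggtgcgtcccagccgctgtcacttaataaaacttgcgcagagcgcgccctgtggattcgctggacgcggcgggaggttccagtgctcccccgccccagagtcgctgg
Among these 3, a TATAAA was found in Slc26a4 alone, at -31 to -26 relative to the start used and within the RefSeq gene span. TATAAA was present on either strand in 12.4% of the 32851 promoter windows of the same length. The Slc26a4 window held 49.6% G and C, against 66.4% for Slc5a5, 58.8% for Slc5a8 and a median of 52.4% over all windows. The cyclic AMP response element TGACGTCA, its part TGACG (which lies within it), TGTTTAC and CACTNAAG were searched on both strands. None of these 4 was found in the 3 windows printed, while 1.55%, 17.8%, 3.17% and 3.49% of all windows held them. Of the 8 genes, 6 had a window in the RefSeq table, and in Kcne2 TGACG was found at -222 to -218 and, on the other strand, at -118 to -114.

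The libraries held 32244842 to 51886245 counts. All were thyroid by their markers: the 13 follicular and epithelial genes had a mean log2 CPM (counts scaled to library size) of 9.11 to 9.59 in every library and none of them was at 0. Transcripts of neighbouring tissue varied. The 14 skeletal muscle markers averaged -1.17 to 6.53 in TSH, -1.87 to 4.94 in TSH-MMI, 1.48 to 4.26 in Empty-MMI and 7.82 to 9.06 in Empty at 4 weeks. Their summed level there was 6.98 to 1698 CPM in TSH, 9.40 to 601 in TSH-MMI, 71.0 to 384 in Empty-MMI and 4411 to 12934 in Empty, and up to 3 of the 14 were at 0 in a TSH-MMI library. At 1 week the muscle score overlapped between groups (3.48 to 8.11 in TSH, 2.30 to 5.43 in TSH-MMI, -0.06 to 6.50 in Empty). Markers of thymocytes scored 0.99 in TSH-MMI replicate 2 and 3.82 in the third Empty library of 1 week, and -3.13 to -0.84 in the other libraries. The 12 airway markers scored 2.24 in Empty replicate 2 of 4 weeks and at most 1.54 elsewhere. Parathyroid markers scored 0.06 in TSH replicate 1 and 4.37 in Empty replicate 3 of 4 weeks and 6.20 or more elsewhere. Other cell types of the gland moved with TSH. All 5 macrophage markers were called higher in TSH than in Empty at both times (median log2FC 1.24 and 1.11), with scores of 5.99 to 6.16 in TSH and 4.78 to 4.91 in Empty at 1 week. All 5 endothelial markers were also called higher at both times (0.52 and 0.64), as were 4 of 7 fibroblast and matrix markers (1.76 and 0.67, with 1 lower at 4 weeks). Of 11 tested C cell markers 8 were called lower at each time (-1.04 and -1.07, with 1 higher at 1 week). Of 15 proliferation markers 15 were called higher at 1 week and 12 at 4 weeks. Over all genes, 24.1% were called in TSH against Empty at 1 week and 14.1% at 4 weeks. Empty-MMI against Empty at 4 weeks called 8 of the proliferation markers higher, where 1.64% of all genes were called. It also called 2 of the fibroblast and matrix markers and 1 of the endothelial markers higher, and 0 of the macrophage or C cell markers. The part of these cell types in the results below was not tested. In whole glands, fewer cells of a type and less RNA per cell cannot be told apart. Each week has its own table, so that time and table cannot be told apart, and levels are not compared between weeks. Counts were tested with edgeR's quasi-likelihood method across all genes, and a gene is called at a Benjamini-Hochberg adjusted p under 0.05. CPM values are scaled by the trimmed mean of M values within each week, and a log2 fold change (log2FC) is given with its standard error (SE). Values rest on n = 3 libraries per group.

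Per length of transcript, the 8 members kept 1 order in all 21 libraries, apart from Cftr and Slc26a4. Slc26a7 was the most abundant, with 89.2, 161 and 270.3 FPKM (fragments per kilobase of transcript, scaled to library size, as deposited) in the lowest, median and highest library. Slc5a5 came next with 23.4, 70.8 and 141 FPKM, and Slc5a8 after it with 9.93, 15.3 and 21.9 FPKM. Ano1 had 3.57 to 9.97 FPKM and Kcnq1 1.93 to 5.25 FPKM. Cftr (0.814 to 1.70 FPKM) and Slc26a4 (0.0499 to 1.59 FPKM) shared the sixth and seventh places, and Kcne2 was last. Within a week, Slc26a4 spanned 31.9-fold between its lowest and highest library at 1 week and 21.1-fold at 4 weeks, against 2.41- and 3.98-fold for Slc5a5. The other 5 members that could be tested spanned 1.73- to 2.61-fold.

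**Figure D1:**
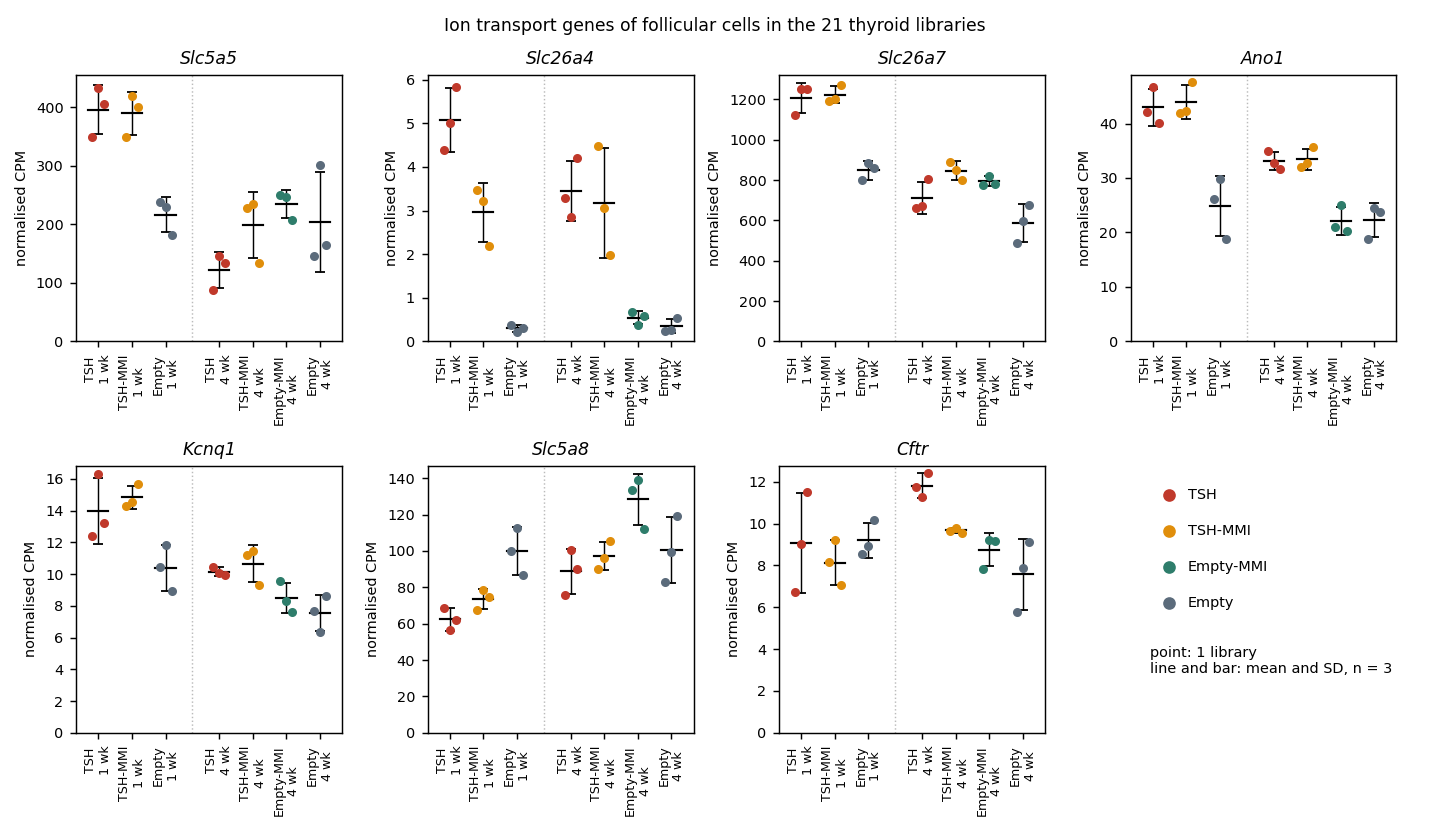
Level of each of the 7 tested members in every library (linear axes from 0, normalised CPM within each week), with the groups of 1 week left of those of 4 weeks. Points are libraries, lines and bars are the mean and SD (n = 3); Slc26a4 stands apart in TSH and TSH-MMI at both times, while the Slc5a5 libraries of TSH lie above Empty at 1 week and reach below it at 4 weeks.

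After 1 week of TSH most of the iodide route was more abundant. Of the 7 tested members, 5 were called higher than in Empty (Slc26a4, Slc5a5, Slc26a7, Ano1 and Kcnq1), 1 was called lower (Slc5a8) and Cftr was not called. Over all 16956 tested genes, 24.1% were called, 14.8% as higher and 9.34% as lower. The median log2FC of the members was 0.51, against -0.00 over all genes. With methimazole added, TSH-MMI against Empty gave the same 5 calls up and the same call down, where 21.6% of genes were called, 13.6% as higher and 7.97% as lower. Both comparisons use the same Empty libraries.

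Slc5a5 encodes the sodium/iodide symporter NIS (on GRCm38, chromosome 8, 70882889 to 70892757, minus strand). At 1 week it had 350.1, 433 and 406 CPM in TSH, 349, 420.0 and 401 CPM in TSH-MMI and 238, 229 and 182 CPM in Empty. All 6 libraries with TSH lay above all 3 of Empty. Such a lack of overlap was found for 41.1% of all genes in TSH against Empty and 38.8% in TSH-MMI against Empty at 1 week, and at 4 weeks for 35.2% and 30.9%. In the other 4-week comparisons it was found for 28.8% of genes in TSH and 23.6% in TSH-MMI against Empty-MMI, and for 18.5% in Empty-MMI against Empty. For TSH-MMI against TSH it was 16.5% at 1 week and 14.4% at 4 weeks. The lack of overlap of single members below is to be read against these shares. The mean was 396 ± 42.3 CPM in TSH, 390.0 ± 36.9 CPM in TSH-MMI and 217 ± 30.0 CPM in Empty (SD, n = 3 each). Slc5a5 was 1.83-fold higher in TSH than in Empty, with a log2FC of 0.87 (SE 0.11, 95% interval 0.62 to 1.12, adjusted p = 0.000369), and its log2FC in TSH-MMI was 0.85 (SE 0.11, adjusted p = 0.000613).

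At 4 weeks Slc5a5 no longer stood above Empty. Its levels were 87.1, 146.1 and 134 CPM in TSH, 228, 235 and 134 CPM in TSH-MMI, 250.4, 248 and 208 CPM in Empty-MMI and 145.6, 302 and 165 CPM in Empty. The groups overlapped, TSH and Empty by the margin of 1 library, apart from TSH, which lay below every Empty-MMI library. The log2FC of TSH against Empty was -0.74 (SE 0.31, 95% interval -1.44 to -0.04), with an unadjusted p of 0.0407 and an adjusted p of 0.149. Empty replicate 2, the library with 302 CPM and the highest airway score, moved this value: without it the log2FC was -0.34 (adjusted p = 0.420). The part of the airway transcripts in it was not tested. In TSH-MMI against Empty the log2FC was -0.03 (SE 0.31, adjusted p = 0.961). TSH against Empty-MMI gave -0.94 (SE 0.31, adjusted p = 0.127), a difference without overlap (as for 28.8% of genes) that was not called by the fit over all 4 groups and was called when only these 2 groups were fitted (adjusted p = 0.0243).

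The change of the TSH effect between the times was tested directly. For Slc5a5 the log2FC of TSH over Empty was lower at 4 weeks than at 1 week by a log2 difference of -1.61 (SE 0.37, 95% interval -2.39 to -0.82, adjusted p = 0.0439). It was the only member called, where 1.35% of 17715 genes were called, 0.418% as higher and 0.931% as lower. The adjusted p lies close to the threshold, and leaving out 1 library at a time ended the call for 9 of 12 libraries, with differences of -1.79 to -1.20 throughout. The call also ended with the muscle score as a covariate, where the difference was -1.67 (adjusted p = 0.0883). With methimazole present, the same change for TSH-MMI was -0.88 (adjusted p = 0.492) and was not called, where 0.0169% of genes were called, 0.00564% as higher and 0.0113% as lower. Whether the 2 changes differ was tested as the change of the methimazole effect under TSH, in which edgeR called 0 genes and 0 members reached an unadjusted p under 0.05, while DESeq2 called 1 gene as higher and 1 as lower.

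Slc26a4 encodes pendrin, an exchanger of chloride for iodide and bicarbonate (chromosome 12, 31519827 to 31559969, minus strand). It had the highest log2FC of the members at both times. At 1 week it had 4.39, 5.02 and 5.84 CPM in TSH (170, 201 and 289 counts), 3.48, 3.22 and 2.19 CPM in TSH-MMI (144, 141 and 88 counts) and 0.369, 0.212 and 0.317 CPM in Empty (14, 7 and 12 counts). Every library with TSH lay above every Empty library, and every TSH library above every TSH-MMI library (16.5% of genes lacked overlap there). Slc26a4 was 16.7-fold higher in TSH than in Empty, with a log2FC of 4.06 (SE 0.28, 95% interval 3.45 to 4.67, adjusted p = 4.19e-06). In TSH-MMI it was 9.73-fold higher than in Empty, with a log2FC of 3.28 (SE 0.28, adjusted p = 2.87e-05). The difference between TSH-MMI and TSH, a log2FC of -0.78 (95% interval -1.28 to -0.28), had an unadjusted p of 0.00526 and an adjusted p of 0.356. It was not called, in a comparison in which edgeR called 0.0177% of genes.

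Slc26a4 was also high at 4 weeks. It had 3.30, 2.85 and 4.20 CPM in TSH, 4.49, 3.06 and 1.97 CPM in TSH-MMI, 0.672, 0.372 and 0.585 CPM in Empty-MMI and 0.244, 0.266 and 0.546 CPM in Empty. The 6 libraries with TSH were all above the 6 without, and TSH and TSH-MMI overlapped. Against Empty-MMI 28.8% of genes lacked overlap in TSH and 23.6% in TSH-MMI. Slc26a4 was 9.89-fold higher in TSH than in Empty, with a log2FC of 3.31 (SE 0.38, 95% interval 2.49 to 4.12, adjusted p = 0.000158). TSH-MMI over Empty gave 3.18 (SE 0.38, adjusted p = 0.000167), TSH-MMI over Empty-MMI 2.55 (SE 0.37, adjusted p = 0.00210) and TSH over Empty-MMI 2.67 (SE 0.37, adjusted p = 0.00124). Methimazole alone, Empty-MMI over Empty, gave 0.63 (SE 0.41, adjusted p = 0.523). The change of the TSH effect from 1 week to 4 weeks was -0.76 (adjusted p = 0.486) and was not called. With the muscle score as a covariate the log2FC of TSH-MMI over Empty at 4 weeks was 2.65 (adjusted p = 0.0232).

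Even in TSH, Slc26a4 was a minor transcript. Its mean FPKM was 1.38 ± 0.208 in TSH, 0.835 ± 0.181 in TSH-MMI and 0.0760 ± 0.0227 in Empty at 1 week (SD, n = 3 each), beside 241 ± 15.8, 259 ± 10.1 and 169 ± 12.5 for Slc26a7 in the same groups. Per length of transcript, the ratio of Slc26a7 to Slc26a4 averaged 176 in TSH and 2410.5 in Empty at 1 week.

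Slc26a7, the other anion exchanger of this family in the route, rose less (chromosome 4, 14502430 to 14621805, minus strand). At 1 week it had 1121, 1250.3 and 1252 CPM in TSH, 1193, 1203 and 1271 CPM in TSH-MMI and 798, 886 and 857 CPM in Empty. All libraries with TSH were above all of Empty. The log2FC was 0.51 in TSH (SE 0.07, adjusted p = 0.000378), a 1.43-fold difference, and 0.53 in TSH-MMI (SE 0.07, adjusted p = 0.000456). At 4 weeks it had 660.4, 671 and 804 CPM in TSH, 889, 852 and 799 CPM in TSH-MMI, 778, 822 and 780.4 CPM in Empty-MMI and 486, 598 and 676 CPM in Empty. Both groups with methimazole lay above Empty without overlap (as for 30.9% of genes in TSH-MMI and 18.5% in Empty-MMI), and TSH overlapped Empty. TSH-MMI over Empty was called (log2FC 0.53, SE 0.12, adjusted p = 0.00892). Empty-MMI over Empty was not (0.44, SE 0.12, adjusted p = 0.0869 by edgeR and 0.0101 by DESeq2), nor was TSH over Empty (0.28, SE 0.12, adjusted p = 0.134). Against Empty-MMI the log2FC was 0.09 in TSH-MMI (SE 0.12, adjusted p = 0.752) and -0.16 in TSH (SE 0.12, adjusted p = 0.507), with no call.

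Ano1 encodes a calcium-activated chloride channel that also passes iodide (chromosome 7, 144588549 to 144751974, minus strand). At 1 week it had 42.1, 46.7 and 40.1 CPM in TSH, 41.8, 42.4 and 47.6 CPM in TSH-MMI and 26.1, 29.7 and 18.9 CPM in Empty. The libraries with TSH were all higher than those of Empty. It was 1.73-fold higher in TSH, with a log2FC of 0.79 (SE 0.14, adjusted p = 0.00277), and had a log2FC of 0.82 in TSH-MMI (SE 0.14, adjusted p = 0.00290). At 4 weeks the levels were 34.9, 32.7 and 31.7 CPM in TSH, 32.0, 32.7 and 35.7 CPM in TSH-MMI, 20.99, 25.1 and 20.4 CPM in Empty-MMI and 18.8, 24.5 and 23.7 CPM in Empty. The 6 libraries with TSH were again above the 6 without, and the means of Empty-MMI and Empty, 22.2 ± 2.60 and 22.3 ± 3.11 CPM, differed by less than their SD. Against Empty the log2FC was 0.57 in TSH (SE 0.11, adjusted p = 0.00495) and 0.58 in TSH-MMI (SE 0.11, adjusted p = 0.00376). Against Empty-MMI it was 0.58 in TSH (SE 0.11, adjusted p = 0.0101) and 0.59 in TSH-MMI (SE 0.11, adjusted p = 0.0105). Slc26a4 and Ano1 were called in all 6 comparisons of a group with TSH against one without. The 4-week calls of Ano1 ended when libraries were scaled to equal levels of 10 epithelial genes, with a log2FC of 0.43 in TSH over Empty (adjusted p = 0.0856). This scaling takes the 10 genes as unchanged. In the main fit 3 of them were called higher and 0 lower at 4 weeks, both in TSH and in TSH-MMI against Empty. Of all genes 8.52% and 8.77% were called higher there.

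Cftr, the chloride channel of airway and gut epithelium (chromosome 6, 18170687 to 18322768, plus strand), did not follow the others at 1 week. It had 6.73, 9.01 and 11.5 CPM in TSH, 8.16, 9.22 and 7.04 CPM in TSH-MMI and 8.56, 8.91 and 10.2 CPM in Empty, and the groups overlapped. The log2FC was -0.02 in TSH (SE 0.18, adjusted p = 0.957) and -0.18 in TSH-MMI (SE 0.18, adjusted p = 0.531). At 4 weeks it had 11.8, 11.3 and 12.4 CPM in TSH, 9.66, 9.80 and 9.57 CPM in TSH-MMI, 7.85, 9.23 and 9.19 CPM in Empty-MMI and 5.77, 7.87 and 9.12 CPM in Empty. TSH was above all other groups, and TSH-MMI lay between TSH and Empty without overlapping either (14.4% of genes lacked overlap in TSH-MMI against TSH and 28.8% in TSH against Empty-MMI). TSH over Empty was called (1.56-fold, log2FC 0.64, SE 0.15, adjusted p = 0.0107) and TSH-MMI over Empty was not (0.35, SE 0.15, adjusted p = 0.129). Against Empty-MMI the log2FC was 0.43 in TSH (SE 0.15, adjusted p = 0.111) and 0.14 in TSH-MMI (SE 0.15, adjusted p = 0.683), with no call. The value in TSH was called when only these 2 groups were fitted (adjusted p = 0.0469). The airway markers, cells that also use Cftr, scored -0.91 to -0.73 in TSH and -0.65 to 2.24 in Empty at 4 weeks. The call of TSH over Empty ended with the epithelial scaling (adjusted p = 0.0686) and with the muscle score as a covariate (adjusted p = 0.0639), which left the log2FC at 0.64. It also ended with limma on log2(FPKM + 1) (log2FC 0.31, adjusted p = 0.0514) and on log2(FPKM + 0.1) (log2FC 0.52, adjusted p = 0.0563). The change between the times, a log2 difference of 0.66, was not called (adjusted p = 0.182).

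Kcnq1, the pore subunit of a potassium channel (chromosome 7, 143106362 to 143427042, plus strand), showed a small rise. It had 12.4, 16.3 and 13.2 CPM in TSH, 14.3, 14.6 and 15.7 CPM in TSH-MMI and 10.4, 11.8 and 8.94 CPM in Empty at 1 week. The groups with TSH did not overlap Empty. The log2FC was 0.43 in TSH (SE 0.13, adjusted p = 0.0344) and 0.51 in TSH-MMI (SE 0.13, adjusted p = 0.0168). At 4 weeks it had 10.5, 10.1 and 9.92 CPM in TSH, 11.2, 11.5 and 9.30 CPM in TSH-MMI, 9.54, 8.30 and 7.63 CPM in Empty-MMI and 7.66, 6.33 and 8.62 CPM in Empty. TSH and TSH-MMI were above Empty without overlap. TSH-MMI over Empty was called (0.50, SE 0.14, adjusted p = 0.0261) and TSH over Empty was not (0.43, SE 0.14, adjusted p = 0.0535). Against Empty-MMI the log2FC was 0.33 in TSH-MMI (SE 0.14, adjusted p = 0.230) and 0.26 in TSH (SE 0.14, adjusted p = 0.327), with no call. Each of the 3 calls ended in several settings, among them the removal of both thymocyte-rich libraries at 1 week (adjusted p = 0.116 in TSH and 0.0764 in TSH-MMI). Kcnq1 shares its locus with the antisense RNA Kcnq1ot1, which had 21 to 82 counts beside 309 to 654 for Kcnq1. The sources used here do not state whether counting used strand, so the Kcnq1 values are uncertain.

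Kcne2, the partner of Kcnq1 in mouse thyroid (chromosome 16, 92292389 to 92298129, plus strand), was close to the floor. It had 14 counts in all, in 4 of 21 libraries: 4 in TSH replicate 3 and 6 and 2 in Empty replicates 1 and 3 at 1 week, and 2 in Empty replicate 1 at 4 weeks. The other 17 libraries had 0 counts, which allows up to 3 counts, or 0.0578 to 0.0930 CPM, for counting error only. It could not be tested, and no difference between groups was detectable at this depth. Among other subunits of the same family, Kcne4 was called higher at 1 week in TSH (log2FC 1.11, SE 0.27, adjusted p = 0.0113), with a mean of 0.952 FPKM in TSH, 1.05 in TSH-MMI and 0.426 in Empty. Kcne3 had group means of 1.04 to 1.90 FPKM.

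Slc5a8 went the other way at 1 week (chromosome 10, 88885992 to 88929515, plus strand). It had 68.9, 56.4 and 61.9 CPM in TSH, 67.8, 78.4 and 74.6 CPM in TSH-MMI and 99.95, 113 and 86.8 CPM in Empty. Every library with TSH was below every Empty library. The log2FC was -0.68 in TSH (SE 0.10, adjusted p = 0.000789), or 0.625 of the Empty level, and -0.44 in TSH-MMI (SE 0.10, adjusted p = 0.0110). At 4 weeks it had 76.0, 100.4 and 90.1 CPM in TSH, 90.1, 96.1 and 106 CPM in TSH-MMI, 133, 139 and 112 CPM in Empty-MMI and 82.8, 99.2 and 119 CPM in Empty. TSH and TSH-MMI overlapped Empty and lay below Empty-MMI, a lack of overlap shared by 28.8% of genes in TSH and 23.6% in TSH-MMI. Against Empty the log2FC was -0.18 in TSH (SE 0.14, adjusted p = 0.424) and -0.05 in TSH-MMI (SE 0.14, adjusted p = 0.865). Against Empty-MMI it was -0.53 in TSH (SE 0.14, adjusted p = 0.0391), which was called and was lost without either of 2 Empty-MMI or 2 TSH libraries, and -0.40 in TSH-MMI (SE 0.14, adjusted p = 0.133). The change of the TSH effect between the times was 0.50 (adjusted p = 0.193) and was not called.

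**Figure D2:**
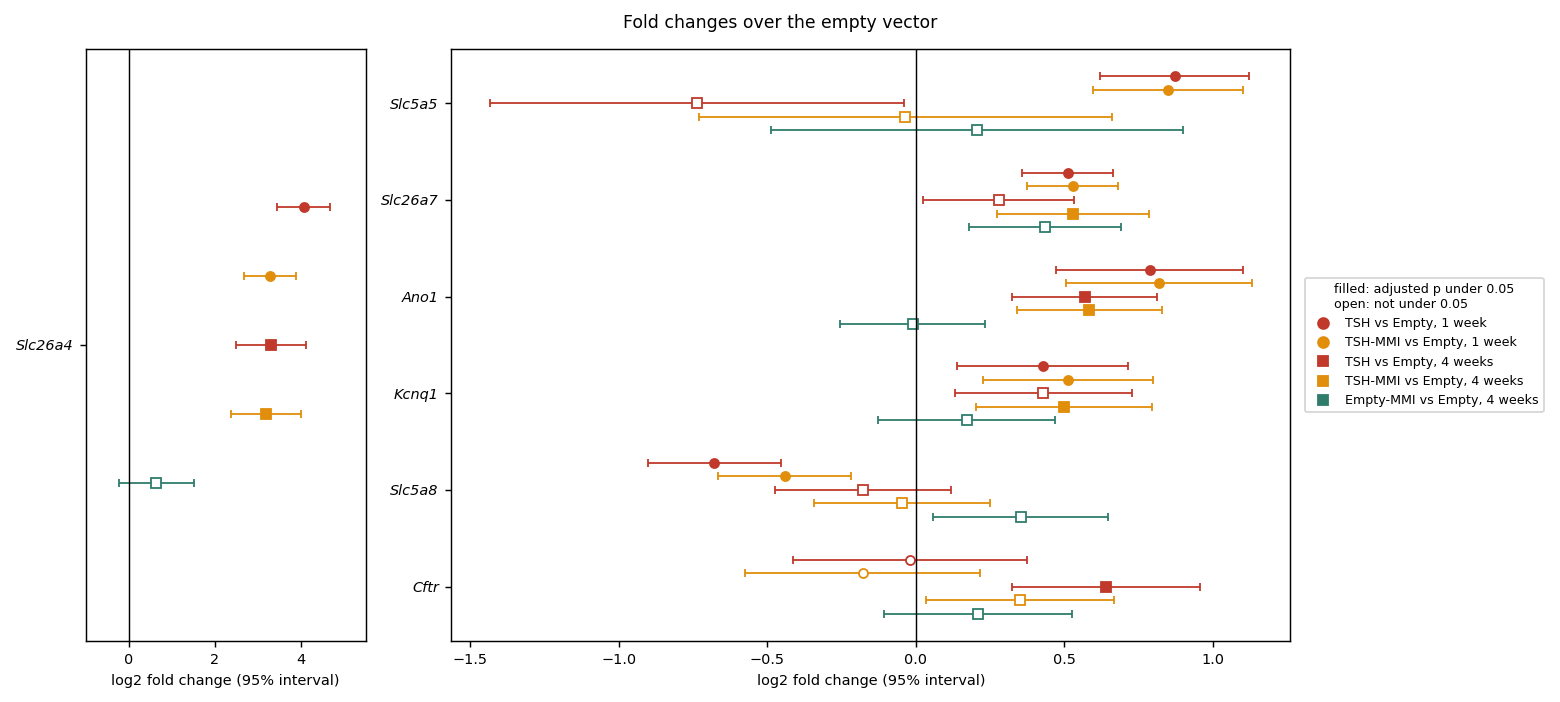
Log2 fold change of each tested member in TSH and TSH-MMI over Empty at 1 week and in TSH, TSH-MMI and Empty-MMI over Empty at 4 weeks, with 95% intervals; filled symbols passed an adjusted p of 0.05. Slc26a4 has an axis of its own. Slc26a4 lies at 4.06 and 3.28 at 1 week and 3.31 and 3.18 at 4 weeks, Slc5a5 at 0.87 and 0.85 and then -0.74 and -0.03.

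At 4 weeks fewer members were called than at 1 week. TSH against Empty called 3 of 7, all higher (Slc26a4, Ano1 and Cftr), where 14.1% of 17355 genes were called, 8.52% as higher and 5.61% as lower (1478 and 974 genes, but 730 and 1583 with the epithelial scaling). The median log2FC of the members was 0.43, against -0.03 over all genes. TSH-MMI against Empty called 4, all higher (Slc26a4, Slc26a7, Ano1 and Kcnq1), where 14.7% of genes were called, 8.77% as higher and 5.97% as lower (1522 and 1036 genes, but 706 and 1462 with that scaling). Of these 4, only Slc26a4 was still called with the muscle score as a covariate or with the epithelial scaling. With the covariate the log2FC was 0.55 for Slc26a7, 0.61 for Ano1 and 0.41 for Kcnq1, against 0.53, 0.58 and 0.50 without it. At 4 weeks the muscle score was 7.82 or more in every Empty library and at most 6.53 in the others. The covariate thus largely coincides with a contrast against Empty, and a call lost with it cannot tell muscle from group. Against Empty-MMI, where the muscle scores were closer, TSH-MMI called 2 (Slc26a4 and Ano1, higher), where 4.24% of genes were called, 3.03% as higher and 1.21% as lower. TSH against Empty-MMI called 3 (Slc26a4 and Ano1 higher, Slc5a8 lower), where 5.64% of genes were called, 3.84% as higher and 1.8% as lower.

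For methimazole alone no member was called with edgeR. Empty-MMI against Empty called 0 of 7 members with edgeR, where 1.64% of genes were called, 0.57% as higher and 1.07% as lower. Slc26a7 and Slc5a8 had unadjusted p under 0.05, and DESeq2 called Slc26a7. TSH-MMI against TSH called 0 members at either time, where 0.0177% of genes at 1 week and 0.0173% at 4 weeks (0.0115% as higher and 0.00576% as lower) were called with edgeR. DESeq2 called 36 genes higher and 112 lower at 1 week and 39 higher and 43 lower at 4 weeks. At an unadjusted p under 0.05 there were 2 members at 1 week, Slc26a4 and Slc5a8 (log2FC 0.24, adjusted p = 0.543). At 4 weeks Slc5a5 had a log2FC of 0.70 (SE 0.31, unadjusted p = 0.0491, adjusted p = 0.600). The test of whether the effect of TSH at 4 weeks differed with methimazole called 0 genes with edgeR and 69 as higher and 102 as lower with DESeq2, and Cftr had a log2 difference of -0.50 (adjusted p = 0.450).

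Ratios between members within a library describe how unequally their transcripts changed, with no test. Per length of transcript (FPKM), Slc26a4 relative to Slc5a5 averaged 0.0110 in TSH (0.00993 to 0.0123 over libraries), 0.00656 in TSH-MMI (0.00464 to 0.00849) and 0.00116 in Empty (0.000722 to 0.00149) at 1 week. At 4 weeks it averaged 0.0253 in TSH (0.0167 to 0.0324), 0.0135 in TSH-MMI (0.0112 to 0.0168), 0.00199 in Empty-MMI (0.00128 to 0.00238) and 0.00161 in Empty (0.000749 to 0.00273). The groups with TSH did not overlap those without at either time. Slc5a5 relative to Slc5a8, both members of the sodium-coupled family, averaged 11.7 in TSH (9.26 to 13.99), 9.65 in TSH-MMI (9.38 to 9.81) and 3.95 in Empty (3.70 to 4.34) at 1 week. At 4 weeks it averaged 2.48 in TSH (2.09 to 2.71), 3.80 in TSH-MMI, 3.34 in Empty-MMI (3.24 to 3.42) and 3.75 in Empty (2.51 to 5.54). TSH thus lay above Empty at 1 week and below Empty-MMI at 4 weeks, overlapping Empty. Slc26a7 relative to Slc5a5 averaged 1.93 in TSH, 2.02 in TSH-MMI and 2.58 in Empty at 1 week, and 4.06 in TSH, 2.83 in TSH-MMI, 2.18 in Empty-MMI and 1.97 in Empty at 4 weeks. Ano1 relative to Cftr averaged 6.72 in TSH, 7.43 in TSH-MMI and 3.75 in Empty at 1 week, and 3.81 in TSH, 4.65 in TSH-MMI, 3.44 in Empty-MMI and 4.05 in Empty at 4 weeks.

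**Figure D3:**
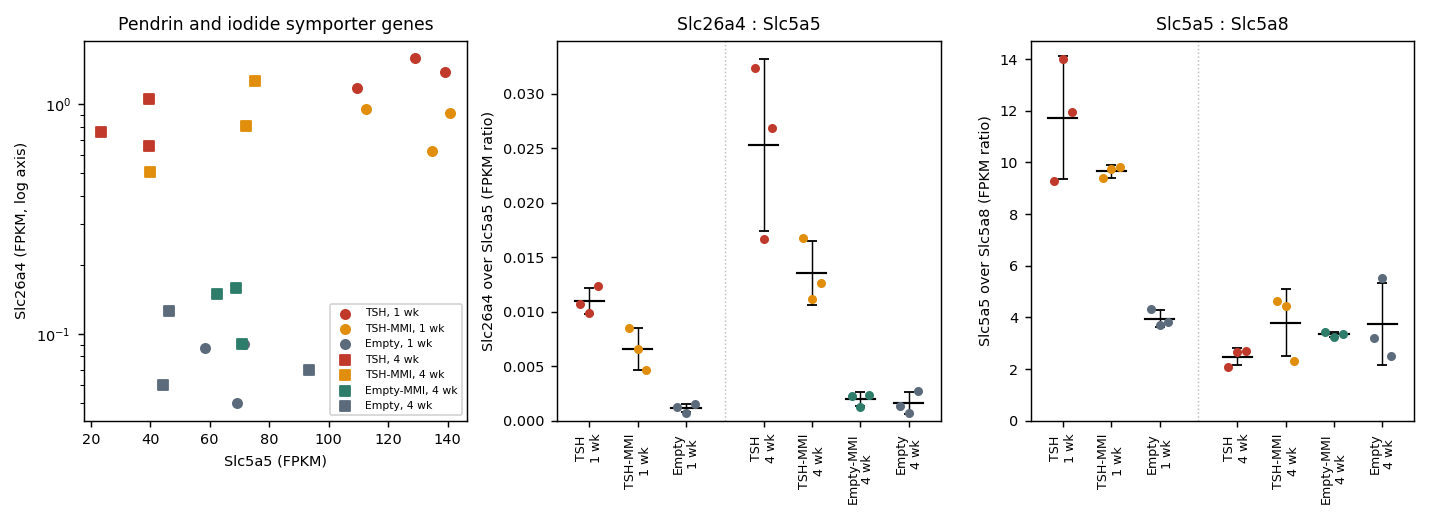
Left, Slc26a4 (FPKM, log axis) against Slc5a5 (FPKM) in the 21 libraries; middle and right, ratios of FPKM by group (linear axes), with points for libraries and lines and bars for mean and SD (n = 3). Slc26a4 to Slc5a5 is 0.00993 or more in every TSH library and at most 0.00273 in every Empty library, while Slc5a5 to Slc5a8 is highest in TSH at 1 week and averages 2.48 in TSH at 4 weeks.

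The genes nearest to each member in pattern were found from 5 differences of mean log2 CPM from Empty (TSH and TSH-MMI at 1 week and TSH, TSH-MMI and Empty-MMI at 4 weeks), among genes with a mean of at least 5 CPM, as a description with no test. The distance is the root mean square of the log2 differences between the patterns. Slc5a5 was nearest to Pdk4 (0.18), a kinase that restrains pyruvate oxidation, and Mest (0.26). The genes nearest to Slc26a4 were Ccn5 (0.30) and Gdf15 (0.50). Its own group means were 0.299 to 5.08 CPM, so most genes at its level were outside the search. Its log2 differences were also the largest of the members, and the distance is not scaled to their size. Slc26a7 was nearest to Bcam (0.05) and Cdc42se2 (0.06), Ano1 to Synpo (0.08) and Rgs10 (0.08), and Kcnq1 to Dusp3 (0.03) and Paqr4 (0.05). Slc5a8 was nearest to Plag1 (0.08) and Hnrnpdl (0.12), and Cftr to Igsf3 (0.03) and Tmem178b (0.07).

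The wider machinery of iodide handling was counted over lists, to be read against all genes, of which 24.1% were called in TSH at 1 week and 14.1% at 4 weeks. Of 20 genes of hormone synthesis and its control, all 20 were tested, and in TSH at 1 week 6 were called higher and 3 lower (14.8% and 9.34% of all genes), with a median log2FC of 0.05. Tshr, the receptor of TSH, rose (1.32, SE 0.09, adjusted p = 4.24e-06), as did the deiodinase Dio2 (1.82, SE 0.27, adjusted p = 0.00122). At 4 weeks 3 of 20 were called, near the 14.1% of all genes: 2 were higher in TSH than in Empty, Dio2 (1.61, adjusted p = 0.00227) and the iodotyrosine deiodinase Iyd (0.35, adjusted p = 0.0313), and 1 lower, Slc16a10 (-0.45, adjusted p = 0.0183). TSH-MMI against Empty called 7 higher and 2 lower at 1 week (13.6% and 7.97% of all genes). At 4 weeks it called 6 higher and 1 lower (8.77% and 5.97% of all genes).

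Of the genes of the sodium pump, which keeps the gradient that NIS uses, 3 beta subunits were called higher in TSH at 1 week and none at 4 weeks. Of 14 pump genes 12 were tested, and 4 were called higher and 0 lower in TSH at 1 week, against 14.8% and 9.34% of all genes, with a median log2FC of 0.21. They were Atp1b1 (0.57, SE 0.08, adjusted p = 0.000336), Atp1b3 (0.32, SE 0.06, adjusted p = 0.00257), Atp1b2 (0.35, SE 0.12, adjusted p = 0.0490) and the regulator Fxyd5 (0.53, SE 0.08, adjusted p = 0.000860). TSH-MMI against Empty also called 4 higher and 0 lower at 1 week (13.6% and 7.97% of all genes). At 4 weeks it called 4 higher and 3 lower (8.77% and 5.97% of all genes). In TSH at 4 weeks 1 pump gene was called higher and 2 lower (8.52% and 5.61% of all genes). Fxyd5 was the higher one (0.49, adjusted p = 0.00765), and Fxyd1, which is abundant in muscle, was called lower (-1.15, adjusted p = 0.0158). In Empty-MMI against Empty Fxyd1 was also lower (-1.23), and the skeletal muscle score was higher in Empty than in both of these groups. Its part in these calls was not tested.

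Relatives of the members and other ion and water transporters were counted in the same way. Of 37 paralogs 25 were tested at 1 week, and 8 were called higher and 1 lower in TSH (14.8% and 9.34% of all genes), with a median log2FC of 0.26. The inositol transporter Slc5a3 (1.12, SE 0.11, adjusted p = 7.74e-05) and the sugar transporter Slc5a9 (1.93, SE 0.21, adjusted p = 0.000400) were higher at 1 week, as was Slc26a10 (0.72, SE 0.14, adjusted p = 0.00440). At 4 weeks both Slc5a9 (1.32, adjusted p = 0.000203) and Slc5a3 (0.81, adjusted p = 0.0134) were called higher again. Of 24 paralogs tested there, 4 were called higher and 2 lower (8.52% and 5.61% of all genes). Of 49 other transporters and channels 44 were tested at 1 week, and 7 were called higher and 6 lower (14.8% and 9.34% of all genes), with a median of 0.08. The water channel Aqp1 was higher (1.84, SE 0.19, adjusted p = 0.000260), with a mean of 155 FPKM in TSH, 172 in TSH-MMI and 41.8 in Empty. The chloride importer Slc12a2 (0.43, SE 0.06, adjusted p = 0.000466) and the potassium channel Kcnk1 (0.66, SE 0.10, adjusted p = 0.000619) were also higher, and the sodium channel subunit Scnn1a was lower (-0.46, SE 0.08, adjusted p = 0.00194). At 4 weeks Aqp1 was called again in TSH (1.48, adjusted p = 4.57e-05), with means of 85.04 FPKM in TSH, 124 in TSH-MMI, 49.6 in Empty-MMI and 32.7 in Empty. There 9 transporters were called higher and 3 lower in TSH, against 8.52% and 5.61% of all genes. Aqp1 is also abundant in the endothelium of vessels. The 5 endothelial markers scored 7.54 to 7.67 in TSH and 6.79 to 7.03 in Empty at 1 week, and 7.07 to 7.17 in TSH and 6.45 to 6.52 in Empty at 4 weeks, and their part in the Aqp1 values was not tested.

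**Figure D4:**
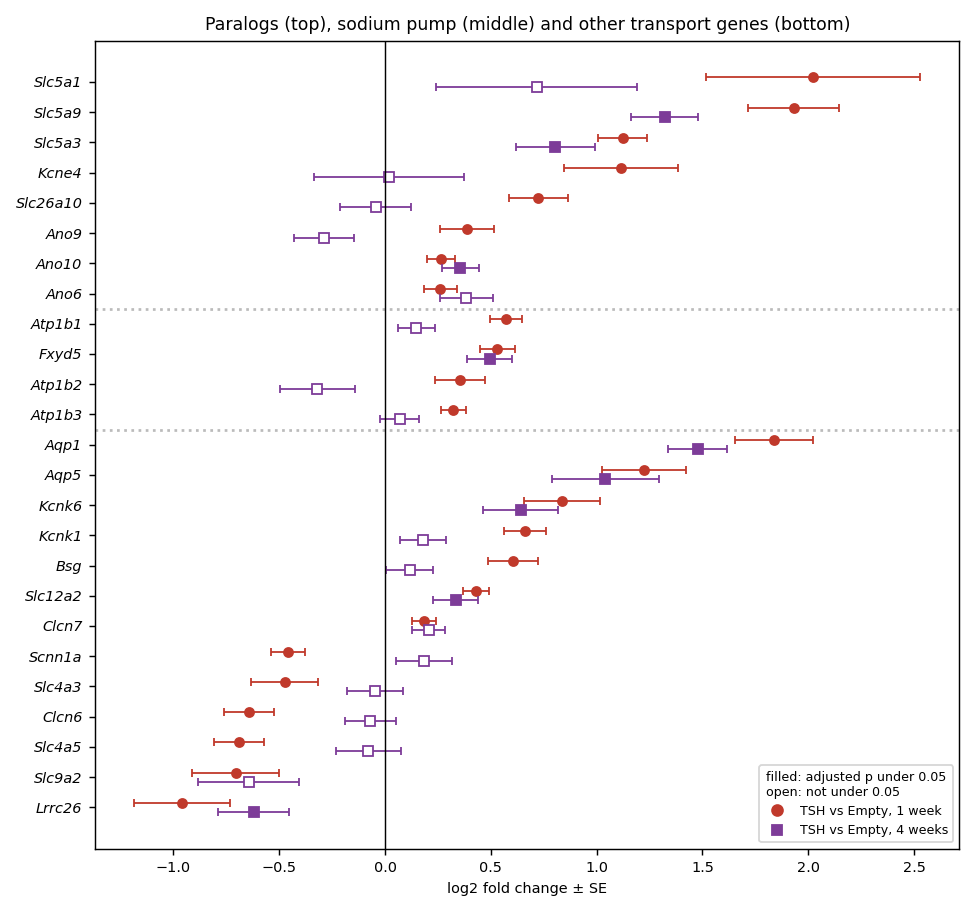
Log2 fold change ± SE of TSH over Empty at 1 week (circles) and 4 weeks (squares) for paralogs, sodium pump genes and other transport genes called at 1 week, without those not reported here; filled symbols passed an adjusted p of 0.05. Aqp1, Slc5a9 and Slc5a3 are higher at both times, and the pump subunit Atp1b1 is called at 1 week.

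Of 19 genes that act on the members (scaffolds, kinases, trafficking and transcription factors), all 19 were tested, and 4 were called higher and 2 lower in TSH at 1 week (14.8% and 9.34% of all genes), with a median log2FC of 0.06. The membrane linker moesin (Msn) was higher at 1 week (0.63, SE 0.07, adjusted p = 9.9e-05) and at 4 weeks (0.61, adjusted p = 0.00176). It was the single gene of the 19 called in TSH against Empty at 4 weeks, where 14.1% of all genes were called. Leukocytes and endothelium also express Msn, and the markers of macrophages (median log2FC 1.24 at 1 week and 1.11 at 4 weeks) and of endothelium (0.52 and 0.64) were higher in the same comparisons. Their part in it was not tested. The kinase Wnk1 was higher (0.29, SE 0.06, adjusted p = 0.00398), and Pttg1ip, which binds NIS and moves it from the membrane in cultured cells, was lower (-0.22, SE 0.05, adjusted p = 0.0133). Foxi1, the forkhead factor that drives Slc26a4 in the inner ear and kidney of mice, was called higher at 1 week in TSH (adjusted p = 0.0155). In TSH-MMI against Empty it was also called higher at 1 week (log2FC 3.34). Its counts were 8, 17 and 38 in TSH, 22, 16 and 12 in TSH-MMI and 0, 0 and 4 in Empty. At 4 weeks they were 4, 10 and 14 in TSH, 9, 10 and 29 in TSH-MMI, 2, 0 and 0 in Empty-MMI and 0, 2 and 6 in Empty, so that all groups were near the lower limit of detection. At these counts Foxi1 was called higher in TSH-MMI against Empty-MMI at 4 weeks (log2FC 4.34), where 3.03% of all genes were called higher. In TSH and TSH-MMI against Empty it was not called there. Ascl3, the other ionocyte marker, had 0 to 14 counts per library.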

How the data were processed

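Per the labels' protocols, RNA of mouse thyroid glands went into stranded mRNA libraries. The tools named in the submitters' processing notes are HISAT2 2.1.0, StringTie 2.1.3b, Trimmomatic 0.38 and FastQC 0.11.7, and the build is mm10. How strand was used, which annotation served and how reads were counted is not given in the sources used here. Each week has 1 deposited table, with a read count, FPKM and TPM for every gene in each library, per the file headers. The deposited TPM values were not used. Deposited FPKM served for levels between genes. Chi-square over degrees of freedom was 11.1 to 150 between libraries of a group (21 pairs), against 1 for sampling noise, so none was taken as a duplicate.

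The test on counts was that of edgeR 4.0.16 (R 4.3.3): filterByExpr, TMM factors (0.972 to 1.05 at 1 week, 0.935 to 1.1 at 4 weeks), robust quasi-likelihood tests and Benjamini-Hochberg adjustment at 0.05 over all genes. The 9 libraries of 1 week, the 12 of 4 weeks and, for differences of effects between times, all 21 were fitted together, with a biological coefficient of variation of 0.185, 0.184 and 0.189. Intervals are 95%. A marker score is the mean log2 CPM of a list (prior count 2). The code was tested on simulated data.

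The members, gene lists, tests and alternatives were chosen with earlier results of these data known. The text names all 8 members, the 2 genes nearest to each in pattern without predicted, immunoglobulin and T cell receptor genes, and up to 4 genes of each list with the smallest p. Kcne3, Kcne4, Ascl3, the named 4-week values of genes first given at 1 week, and Kcnq1ot1 were added after their values were seen. Some list genes are left out of the text. The alternatives tried were DESeq2 1.42.0, limma 3.58.1 on log2(FPKM + 1) and log2(FPKM + 0.1), RLE size factors, a block for the replicate number, a fit of only the compared groups, no filter on low counts, scaling without Tg, mitochondrial and ribosomal RNA genes, scaling to 10 epithelial genes, a muscle score as a covariate, and leaving out libraries. Promoters are from RefSeq and gene positions from GENCODE on GRCm38.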

Additional observations from a re-analysis of the deposited data

Results flagged for a closer look

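The effect of TSH on Slc5a5 differed between the times by a test of the difference itself, at an adjusted p close to the threshold. The log2 fold change of TSH over Empty was 0.87 at 1 week and -0.74 at 4 weeks, a difference of -1.61 (SE 0.37, 95% interval -2.39 to -0.82, adjusted p = 0.0439 by edgeR). All 3 TSH libraries were above all 3 of Empty at 1 week, while the groups overlapped at 4 weeks. Without Empty replicate 2 of 4 weeks the difference was -1.20 (adjusted p = 0.0531). The call also ended without 8 other single libraries (9 of 12 in all), with no filter on low counts (adjusted p = 0.0723), with the muscle score as a covariate (0.0883), without both thymocyte-rich libraries (0.0892) and with only the compared groups (0.105). DESeq2 gave -1.59 (adjusted p = 0.00332) and limma on log2(FPKM + 1) gave -1.69 (adjusted p = 0.0197). Each time has its own table, so time and table cannot be told apart as sources of the difference.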

How the results depend on the processing

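Of 1659 alternative values of single members, 1606 kept their side of the threshold, 46 lost a call, 7 gained one and 0 reversed a call. In 98 of the 1606 the sign differed and the value was called in neither setting. Slc26a4 was called in all of them for TSH over Empty, with a log2 fold change of 1.14 (log2(FPKM + 1)) to 4.23 at 1 week and 0.75 to 3.74 at 4 weeks. The number of members called was 3 in TSH against Empty at 4 weeks and 1 with the epithelial scaling, 4 in TSH-MMI against Empty and 1 with that scaling and 1 with the muscle covariate, 2 in TSH-MMI against Empty-MMI and 1 with that scaling, 3 in TSH against Empty-MMI and 1 with that scaling but 5 with only the compared groups, and 0 in Empty-MMI against Empty and 1 with DESeq2. For the change of the TSH effect it was 1, and 0 with no filter, with the muscle covariate, without both thymocyte-rich libraries and with only the compared groups. Leaving out 1 library gave 5 to 6 in both 1-week comparisons with Empty, 3 to 5 in both of TSH and TSH-MMI against Empty at 4 weeks, 1 to 2 and 2 to 3 in TSH-MMI and TSH against Empty-MMI, 0 to 1 for the change of the TSH effect, and 0 in the other comparisons. The epithelial scaling shifted the median of all genes by -0.14 (TSH) and -0.148 (TSH-MMI) against Empty at 4 weeks and by -0.173 for the change of the TSH effect, and lowered the share of calls that were higher to 31.6% in TSH at 4 weeks (730 higher, 1583 lower, against 1478 and 974). Of the 10 scaling genes, 3 were called higher and 0 lower in the main fits of TSH and of TSH-MMI against Empty at 4 weeks. The cause of the shift was not tested.

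Over all genes, counts of calls moved by more than 1.5 times in these settings. The change of the TSH effect called 239 genes, and 696 with DESeq2, 752 and 535 with limma, 490 with the epithelial scaling (20 higher, 470 lower, against 74 and 165), 149 with the replicate block, 115 with only the compared groups, 110 with the muscle covariate and as few as 67 without 1 library. Empty-MMI against Empty called 285, and 810 with DESeq2, 154 with the epithelial scaling, 101 with the replicate block, 73 with only the compared groups, 1 with the muscle covariate and as few as 20 without 1 library. With the muscle covariate 1037 genes were called in TSH and 387 in TSH-MMI against Empty at 4 weeks (2452 and 2558 without it). The muscle score separated Empty from the other groups of 4 weeks, so these losses cannot tell muscle from group. DESeq2 and the epithelial scaling called 1544 and 448 in TSH against Empty-MMI (979, and 524 and 549 with limma) and 1220 and 336 in TSH-MMI against Empty-MMI (736). Leaving out 1 library gave as few as 2649 (4094) in TSH and 2094 (3658) in TSH-MMI against Empty at 1 week, 1319 (2452) and 1415 (2558) at 4 weeks, and 416 (979) in TSH and 255 (736) in TSH-MMI against Empty-MMI. DESeq2 called 103 and limma 38 for the change of the TSH-MMI effect (3). Same-numbered libraries deviated together (r above 0.1) in 2 of 9 pairs at 1 week and 4 of 18 at 4 weeks. Differently numbered ones did so in 8 of 18 and 14 of 36 pairs. The numbers were therefore not used as pairs, although deviations from means of 3 libraries cannot exclude pairing. With the replicate block the members called were 6, 6 and 0 in the 1-week comparisons and 3, 0, 4, 0, 2 and 3 in those of 4 weeks, as without it, and Slc5a5 changed by -1.56 (adjusted p = 0.0399). Depth limits Kcne2, which was not tested, and Foxi1.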
